A study of Mus musculus with 20 samples.

Results

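Complement is a blood-borne defence system of many proteins, and the liver is its main source. Recognition by C1q (classical pathway), by lectins and ficolins (lectin pathway) or by slow spontaneous turnover (alternative pathway) leads to cleavage of C3, then of C5, and to assembly of a pore from C5b to C9, while soluble and membrane-bound inhibitors hold the cascade in check. Hepatocytes make most of the soluble proteins, whereas C1q and properdin come largely from macrophages and other myeloid cells, which in the liver means Kupffer cells and recruited monocyte-derived cells. Here 33 mouse genes for complement components, regulators and receptors were taken by symbol, and 30 of them could be measured among 22180 genes. Probe sets annotated to exactly 1 symbol were kept and averaged per symbol. C3 and Cfd were not matched to any probe set by symbol, the only matched probe set of Masp2 is shared with Tardbp, and these 3 genes were not analysed here. The 30 genes were divided by the cell that makes them as known from general knowledge, not by these data, into 17 hepatocyte-made genes, 7 macrophage-made genes and 6 genes of other or mixed origin.

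The study asked whether reduced Bnc2, a gene for a zinc finger transcription factor of myofibroblasts, alters liver fibrosis. Livers of 10 heterozygous Bnc2+/- mice and 10 WT littermates were compared, all adult males of a mixed C57BL/6 and CBA background, 13 to 19 weeks old according to the methods. Bnc2+/- mice carry on 1 allele the Ayu21-18 gene trap, an insertion that disrupts Bnc2 in every cell type, so a difference cannot be assigned to 1 cell type of the liver. Both genotypes had received for 7.5 weeks the CDAA-HFSC diet, which lacks choline, replaces protein by defined amino acids and contains 35% sucrose, 21% fat and 2% cholesterol. This diet produces steatohepatitis with fibrosis, and livers of chow-fed mice were not analysed here. Total liver RNA of each mouse was hybridised to 1 whole-transcript mouse gene array, and all levels below are the deposited log2 values.

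The array medians ran from 6.62 to 6.71, and pairwise correlations between arrays ran from 0.987 to 0.994. Bnc2 itself averaged 5.41 ± 0.13 in Bnc2+/- livers and 5.37 ± 0.25 in WT livers (SD, n = 10 each). The difference was 0.04 (SE 0.09), and Bnc2 lay below the background of the arrays, so that these values do not check the genotype labels. That background was taken from olfactory receptor genes, which the liver does not use. Their 95th percentile was 6.99 over 1105 genes, and 29 of the 30 complement genes lay above it. Fcnb, for a ficolin of neutrophils and monocytes, was the exception at 5.43 ± 0.18 in Bnc2+/- livers and 5.41 ± 0.28 in WT livers. All 9 hepatocyte markers lay above that background. Alb reached the array maximum and could not be compared. Apoa2 and Ttr lay close below that maximum with the same median in both genotypes (19.79 and 19.77), so a difference could be missed there. Of the 8 markers other than Alb, 0 had an unadjusted limma p under 0.05, against 6.41% of all genes. Cps1 had the smallest p, with a difference of 0.13 (SE 0.07, limma p = 0.0636). Of 8 neutrophil markers, 1 lay above the background, and of 5 adipocyte markers, 1 did.

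No complement gene passed the test between genotypes. Of 22180 genes, 0 (0%) reached an adjusted p under 0.05 by limma with Benjamini-Hochberg adjustment, the smallest adjusted p being 0.446, and adjusted p of the 30 complement genes ran from 0.756 to 0.9995. At an unadjusted p under 0.05, 1 of 30 complement genes was lower in Bnc2+/- livers (Serping1), against 3.63% of all genes, and 0 of 30 were higher, against 2.78% of all genes. The fitted difference was negative for 19 complement genes and positive for 11, against 10877 and 11303 of all 22180 genes. Its median was -0.03, against 0.00 for all genes. The difference was under 0.1 in size for 21 of the 30 genes and reached 0.2 for 2, Serping1 and C5ar1. The 95% interval lay within ±0.5 on the log2 scale for 25 genes and within ±0.3 for 12, and the values of the genotypes were free of overlap for 0 of the 30 genes, against 0 of all 22180 genes (0%).

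**Figure D1:**
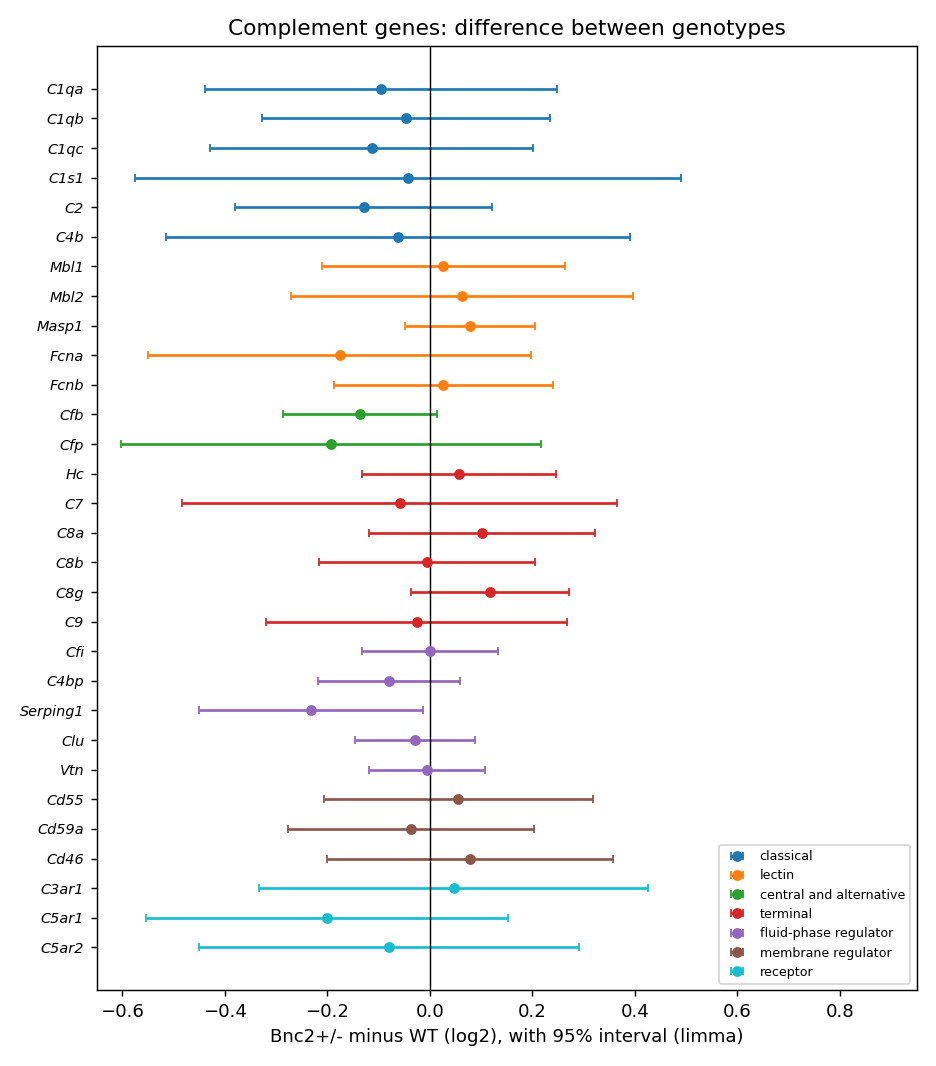
Fitted difference (Bnc2+/- minus WT, log2) of each of the 30 complement genes with its 95% interval from limma (n = 10 mice each), coloured by arm of the cascade. Differences ran from -0.23 (Serping1) to 0.12 (C8g), and the interval of Serping1, from -0.45 to -0.01, was the only one that did not include 0.

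The classical pathway starts with C1q, built from the 3 chains encoded by C1qa, C1qb and C1qc. C1qa spanned 12.77 to 14.28 with a median of 13.22 in Bnc2+/- livers, against 13.10 to 13.81 with a median of 13.45 in WT livers. C1qb spanned 15.03 to 16.22 with a median of 15.61 in Bnc2+/- livers, against 15.41 to 16.35 with a median of 15.68 in WT livers. C1qc spanned 11.63 to 12.86 with a median of 12.32 in Bnc2+/- livers, against 11.91 to 13.10 with a median of 12.46 in WT livers. For each chain 6 of 10 Bnc2+/- livers lay below the WT mean and the ranges overlapped. For C1qa the WT range lay inside the wider Bnc2+/- range, with Bnc2+/- livers both below and above it. The differences were -0.10 for C1qa (SE 0.17), -0.05 for C1qb (SE 0.14) and -0.11 for C1qc (SE 0.15), each within the spread between mice. The same Bnc2+/- livers stood at the ends of all 3 ranges, with replicate 2 lowest and replicate 3 highest within that genotype for each chain.

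Upstream sequences of the C1q genes are shown because the 3 chains varied together from mouse to mouse. The reference table of RefSeq promoters (GRCm38.p6, 250 bases before to 50 after an annotated start) held 25 entries for 22 of the 30 genes, among them C1qb on chr4:136886151-136886450 and C1qc on chr4:136892865-136893164, both on the minus strand. C1qa had no entry there. Capitals mark the letters GAGGAA on either strand, the core read by ETS factors such as PU.1, a transcription factor of macrophages.
C1qb: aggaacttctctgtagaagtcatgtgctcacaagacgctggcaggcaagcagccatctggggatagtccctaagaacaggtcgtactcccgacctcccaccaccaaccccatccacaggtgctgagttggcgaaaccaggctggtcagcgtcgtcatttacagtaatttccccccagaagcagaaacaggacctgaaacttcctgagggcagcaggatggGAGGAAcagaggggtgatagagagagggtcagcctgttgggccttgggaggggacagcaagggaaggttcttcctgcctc
C1qc: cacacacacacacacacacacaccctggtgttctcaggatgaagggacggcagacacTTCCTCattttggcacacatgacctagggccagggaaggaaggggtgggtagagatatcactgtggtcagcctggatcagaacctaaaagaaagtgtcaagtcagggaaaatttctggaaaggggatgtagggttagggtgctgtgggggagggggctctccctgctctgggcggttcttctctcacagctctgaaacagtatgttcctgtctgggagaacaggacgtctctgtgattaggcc
The match began at position -30 from the annotated start in C1qb and at -193 in C1qc, where it lies on the other strand. GAGGAA occurred in 6 of the 25 entries (C1qb, C1qc, C5ar2, Cd59a, Cfp and Fcna), against 28.3% of 32851 promoters of the table, a share near that of all promoters. Of the other motifs searched on both strands, TTCNNNGAA (STAT factors) occurred in 3 of the 25 entries and 8.30% of all promoters, TTGCNNAA (C/EBP factors) in 4 and 10.8%, and the interferon-stimulated response element in 3 and 3.44%.

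**Figure D2:**
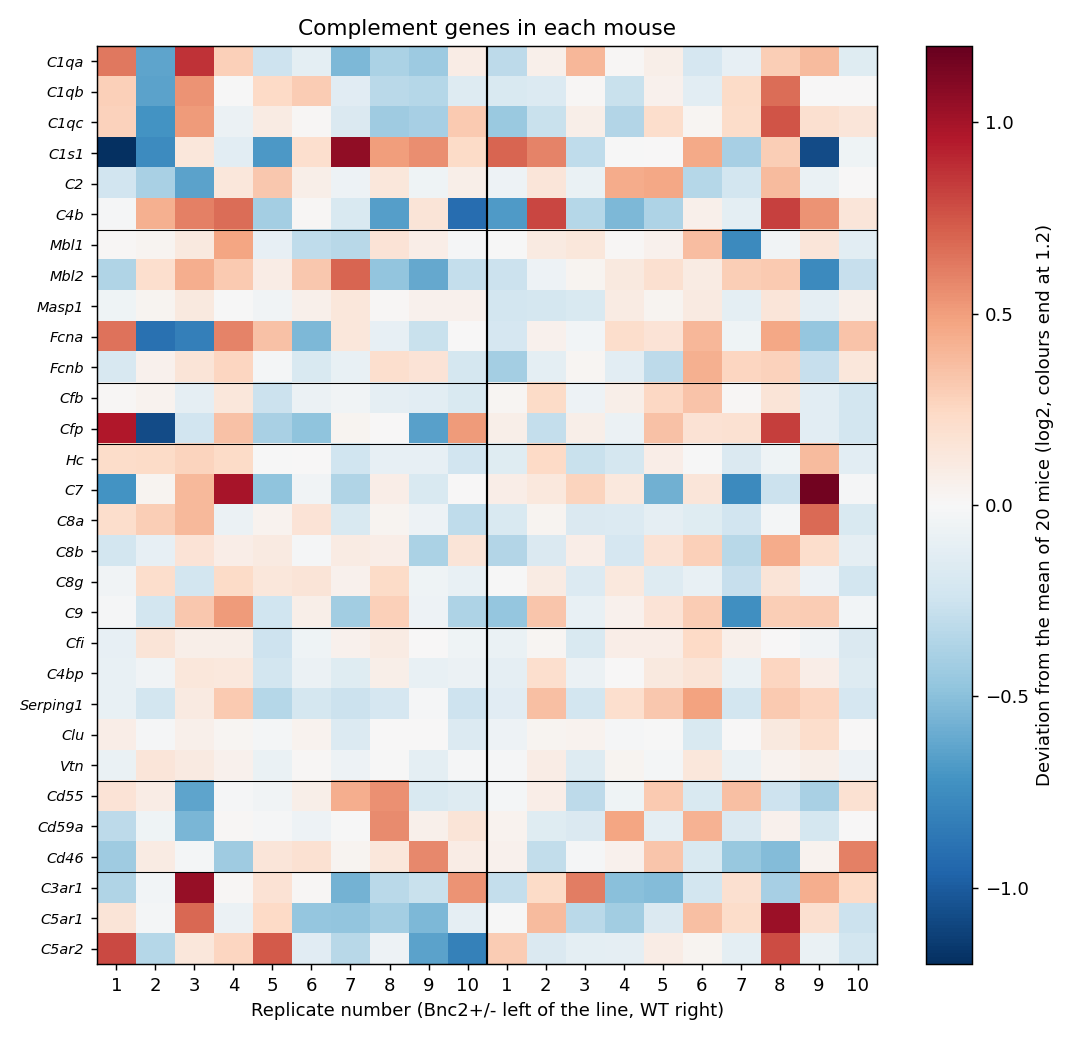
Deviation of each complement gene (rows, grouped by arm of the cascade) from its mean over 20 mice, on the log2 scale, in each mouse (columns, Bnc2+/- left of the line and WT right). C1s1, C4b, C7 and Cfp have the largest SDs within genotype (0.63, 0.53, 0.50 and 0.48), and in every row the values of the genotypes overlap.

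C1s1 encodes the C1s protease, which cleaves C4 and C2 once C1q has bound. It had the widest range of all 30 genes, 8.84 to 11.24 with a median of 10.34 in Bnc2+/- livers, against 9.10 to 10.87 with a median of 10.17 in WT livers. Its mean was 10.15 ± 0.72 in Bnc2+/- livers and 10.20 ± 0.53 in WT livers, a difference of -0.04 (SE 0.26). The difference was within the spread between mice, and its sign followed the probe set, being 0.04 on the brighter of 2 probe sets and -0.13 on the other.

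In 3 livers low C1s1 went with high values of the neighbouring genes C1rb and C1s2. In the reference table C1rl, C1ra, C1s1, C1rb and C1s2 lie in this order, with 1 predicted locus between C1s1 and C1rb. C1ra and C1s1 are the copies known for liver expression, whereas C1rb and C1s2 are duplicates known from the male reproductive tract. C1rb was at 13.73 and 14.06 in Bnc2+/- replicates 1 and 5 and at 14.58 in WT replicate 9, against 6.38 to 7.61 in the other 17 livers. C1s2, below background on average, was at 6.09 and 7.87 in Bnc2+/- replicates 1 and 5. It was at 7.32 in WT replicate 9, against 3.85 to 5.83 in the others. Those same 3 livers had C1s1 at 8.84, 9.48 and 9.10, which were 3 of the 4 lowest C1s1 values among 20 livers on either probe set. The fourth was Bnc2+/- replicate 2 at 9.42. Without those 3 livers C1s1 still spanned 9.42 to 11.24, and no relation across mice was computed for it. C1ra did not fall into separate groups of values, with 9.82 to 10.54 in Bnc2+/- livers and 10.08 to 10.68 in WT livers. C1rb and C1s2 are close copies of C1ra and C1s1, and the files do not show whether a probe reads more than 1 of them, so the values of these genes are uncertain. With the level of C1rb as a covariate, chosen after these values were seen, the genotype difference of C1s1 was 0.06 (limma p = 0.734).

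C4b encodes C4, and C2 encodes the protease that joins it in the C3 convertase of the classical and lectin pathways. C4b spanned 14.93 to 16.52 with a median of 15.84 in Bnc2+/- livers, against 15.16 to 16.67 with a median of 15.82 in WT livers. C2 spanned 11.47 to 12.44 with a median of 12.12 in Bnc2+/- livers, against 11.77 to 12.57 with a median of 12.08 in WT livers. The genotypes overlapped in both genes, and for C2 the difference of means (-0.13, SE 0.12) and that of medians (0.04) had opposite signs.

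C4b, its near-identical copy C4a, C2 and Cfb all lie in the major histocompatibility complex, and the mixed background of these mice can carry different forms of that region. H2-Ea, a class II gene of the complex that is silent in the C57BL/6 strain, had widely separate values. It was at 13.59 and 13.57 in Bnc2+/- replicates 8 and 10 and at 13.67, 14.48, 14.59 and 15.20 in WT replicates 1, 4, 5 and 6, against 4.35 to 6.46 in the other 14 livers. C4b in those mice was 15.19 and 14.93 in Bnc2+/- replicates 8 and 10, against 15.16, 15.30, 15.47 and 15.91 in WT replicates 1, 4, 5 and 6. The 4 lowest C4b values of the 20 livers were among these 6, and the remaining 14 livers spanned 15.44 to 16.67. High H2-Ea was thus unevenly shared, in 2 of 10 Bnc2+/- livers and 4 of 10 WT livers. With H2-Ea as a covariate, chosen after these values were seen, the genotype difference of C4b was -0.26 (limma p = 0.140), against -0.06 (SE 0.22, p = 0.778) without it. The part of the strain of origin of this region in the level of C4b was not tested.

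**Figure D3:**
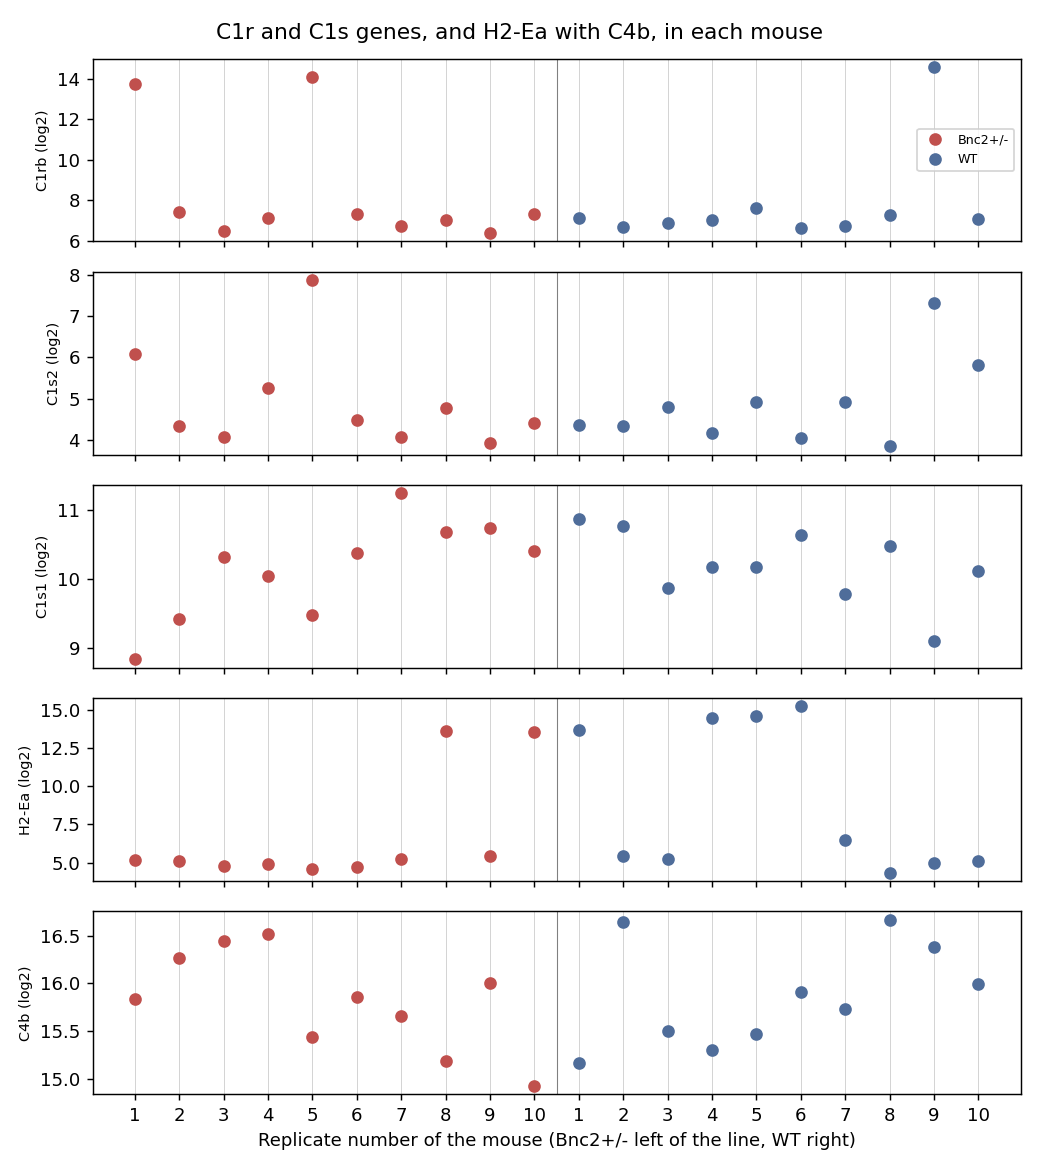
Log2 level of C1rb, C1s2, C1s1, H2-Ea and C4b (rows, each with its own axis) in each mouse, Bnc2+/- left of the line and WT right. C1rb is above 13 in 3 livers with low C1s1, and H2-Ea is above 13 in 6 livers, which include the 4 lowest in C4b.

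In the lectin pathway, Mbl1 and Mbl2 encode the mannose-binding lectins, Masp1 a protease bound to them and Fcna a ficolin of macrophages. Masp1 spanned 14.36 to 14.55 with a median of 14.46 in Bnc2+/- livers, against 14.19 to 14.56 with a median of 14.38 in WT livers. The WT livers were the more widely spread, with 5 livers at 14.31 or below, a level that no Bnc2+/- liver had. Of 10 Bnc2+/- livers 9 lay above the WT mean, and the difference of 0.08 (SE 0.06, limma p = 0.214) did not pass the test. Fcna spanned 7.97 to 9.52 with a median of 8.83 in Bnc2+/- livers, against 8.41 to 9.34 with a median of 8.98 in WT livers, a difference of -0.18 (SE 0.18). Differences were 0.03 for Mbl1 and 0.06 for Mbl2, with SEs of 0.11 and 0.16.

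In the alternative pathway, Cfb encodes factor B, the protease of its C3 convertase, and Cfp encodes properdin, which stabilises that convertase. Cfb spanned 17.21 to 17.60 with a median of 17.38 in Bnc2+/- livers, against 17.25 to 17.81 with a median of 17.51 in WT livers. Of 10 Bnc2+/- livers 9 lay below the WT mean, and the difference of -0.14 (SE 0.07) gave an unadjusted limma p of 0.0742 and an adjusted p of 0.815. Cfp spanned 10.92 to 12.95 with a median of 11.88 in Bnc2+/- livers, against 11.71 to 12.82 with a median of 12.06 in WT livers. Its values were among the most spread of the 30 genes, and the difference of -0.19 (SE 0.20) was within that spread.

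The terminal genes encode C5 (Hc) and the parts of the pore. C8a spanned 15.60 to 16.29 with a median of 15.94 in Bnc2+/- livers, against 15.67 to 16.58 with a median of 15.75 in WT livers. C8g spanned 14.99 to 15.44 with a median of 15.30 in Bnc2+/- livers, against 14.94 to 15.37 with a median of 15.14 in WT livers. Both were somewhat higher in Bnc2+/- livers on average, C8a by 0.10 (SE 0.11) and C8g by 0.12 (SE 0.07, limma p = 0.127), and neither passed the test. The value of C8a rested in part on WT replicate 9, which at 16.58 exceeded every other liver. Without that liver the difference was 0.18 (limma p = 0.0358, adjusted p = 0.712). C8b, Hc, C9 and C7 differed by -0.01, 0.06, -0.03 and -0.06, and C7, a gene of mesenchymal cells in the liver, ranged over 1.92 log2 units among mice.

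Among the soluble inhibitors, Serping1 had the largest difference of all 30 genes. It encodes C1 inhibitor, which blocks C1r, C1s and the lectin proteases. Serping1 spanned 17.51 to 18.16 with a median of 17.65 in Bnc2+/- livers, against 17.63 to 18.33 with a median of 18.08 in WT livers. The WT livers formed a lower set, with replicates 1, 3, 7 and 10 between 17.63 and 17.72, and an upper set of 6 livers between 18.05 and 18.33, whereas 8 of 10 Bnc2+/- livers lay at 17.84 or below and replicates 3 and 4 at 17.96 and 18.16. Its mean was 17.74 ± 0.20 in Bnc2+/- livers and 17.97 ± 0.28 in WT livers, a difference of -0.23 (SE 0.11, 95% interval -0.45 to -0.01) or 0.852-fold, and 9 of 10 Bnc2+/- livers lay below the WT mean. The unadjusted limma p was 0.0389 and the permutation p 0.0465, and the adjusted p was 0.756. On leaving out each mouse in turn the difference stayed between -0.28 and -0.19 and the unadjusted p between 0.0120 and 0.0794. Without the 4 arrays of smallest spread over genes (Bnc2+/- replicates 9 and 10, WT replicates 4 and 6) the difference was -0.17 (limma p = 0.165).

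The other soluble inhibitors varied little between mice. C4bp, whose protein is a cofactor for cleavage of C4b, spanned 17.40 to 17.75 with a median of 17.54 in Bnc2+/- livers, against 17.47 to 17.88 with a median of 17.66 in WT livers, a difference of -0.08 (SE 0.07). Cfi, for the factor I protease, differed by 0.00 (SE 0.06), Clu, for clusterin, by -0.03 (SE 0.06), and Vtn, for vitronectin, by -0.01 (SE 0.05). The 95% interval was -0.13 to 0.13 for Cfi, -0.15 to 0.09 for Clu and -0.12 to 0.11 for Vtn, among the narrowest of the 30 genes.

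The membrane inhibitors are Cd55, which takes apart convertases, Cd59a, which blocks C9, and Cd46, a cofactor for factor I. They differed by 0.06, -0.04 and 0.08, with SEs from 0.12 to 0.13. Of the receptors, C5ar1 for the C5a peptide had the largest difference. C5ar1 averaged 7.02 ± 0.39 (SD) with a median of 7.03 and a highest value of 7.81 in Bnc2+/- livers, against 7.22 ± 0.43 with a median of 7.21 and a highest value of 8.14 in WT livers, a difference of -0.20 (SE 0.17) that was within the spread between mice and close to background. C3ar1 and C5ar2 differed by 0.05 and -0.08, each with an SE of 0.18.

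**Figure D4:**
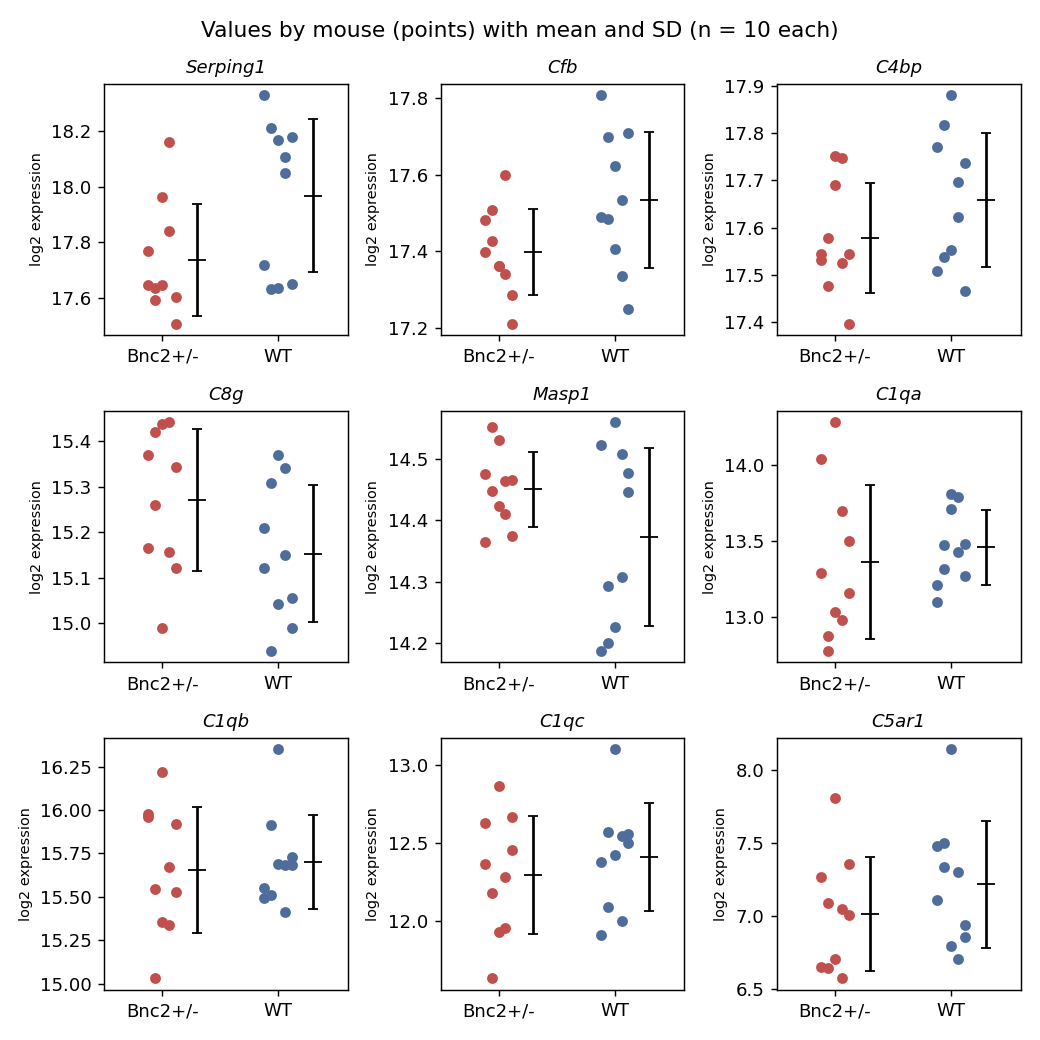
Log2 level of 9 complement genes in each mouse (points), with mean and SD to the right of the points (n = 10 each), Bnc2+/- left and WT right, each panel with its own axis. The genotypes overlap in every panel, and Serping1 shows 4 WT livers at or below 17.72 and 6 at or above 18.05.

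The macrophage-made genes were then set against the hepatocyte-made genes. The 7 macrophage-made genes (C1qa, C1qb, C1qc, Cfp, Fcna, C3ar1 and C5ar1) had a median difference of -0.11, 6 of them negative, and the 17 hepatocyte-made genes had a median difference of -0.01, 10 of them negative. Of all 22180 genes, 10877 had a negative difference. On leaving out 1 mouse the macrophage-made median ran from -0.18 (without Bnc2+/- replicate 3) to -0.04 (without Bnc2+/- replicate 2), and the hepatocyte-made median from -0.04 (without WT replicate 7) to 0.01 (without Bnc2+/- replicate 1). In each mouse, the deviation of a gene from its mean over 20 mice was averaged over each class. For macrophage-made genes this averaged -0.06 ± 0.33 in Bnc2+/- livers and 0.06 ± 0.20 in WT livers (SD, n = 10 each), a difference of -0.11 in means and -0.10 in medians. For hepatocyte-made genes it averaged -0.01 ± 0.11 in Bnc2+/- livers and 0.01 ± 0.14 in WT livers, a difference of -0.02 in means and in medians. Subtracting the hepatocyte value from the macrophage value in each mouse gave -0.05 ± 0.34 in Bnc2+/- livers, with a range from -0.58 to 0.49, and 0.05 ± 0.19 in WT livers, with a range from -0.20 to 0.33. The difference between genotypes in this contrast was -0.09 in means and -0.12 in medians, smaller than the spread between mice of either genotype. Without Bnc2+/- replicate 2, the lowest mouse, it was -0.03. No p was computed for these scores, because the genes were chosen with earlier results known. In bulk liver RNA fewer cells of a type and less RNA per cell cannot be told apart.

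Macrophage-made genes had a larger median SD between mice than hepatocyte-made ones. The SD within genotype had a median of 0.413 (range 0.321 to 0.481) over the 7 macrophage-made genes and of 0.232 (range 0.0873 to 0.632) over the 17 hepatocyte-made genes, against 0.225 over all genes. Ranked by SD among genes of similar level, macrophage-made genes ran from percentile 83.1 (C1qb) to 95.5 (Cfp). Hepatocyte-made genes ran from percentile 9.45 (Masp1) to 97.0 (C1s1), so the classes overlapped. The part of level in these SDs was not tested. The SD was larger in Bnc2+/- than in WT livers for 6 of 7 macrophage-made genes and for 4 of 17 hepatocyte-made genes, against 49.2% of all genes. C1qa, for example, had an SD of 0.51 in Bnc2+/- livers and 0.25 in WT livers, and Cfp had 0.60 in Bnc2+/- livers and 0.32 in WT livers. Of 8 Kupffer cell markers, 7 had the larger SD in Bnc2+/- livers. Without Bnc2+/- replicate 2 the counts were 5 of 7 macrophage-made genes, 3 of 17 hepatocyte-made genes and 6 of 8 markers. These counts were made after the values were seen and the difference in spread was not tested.

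**Figure D5:**
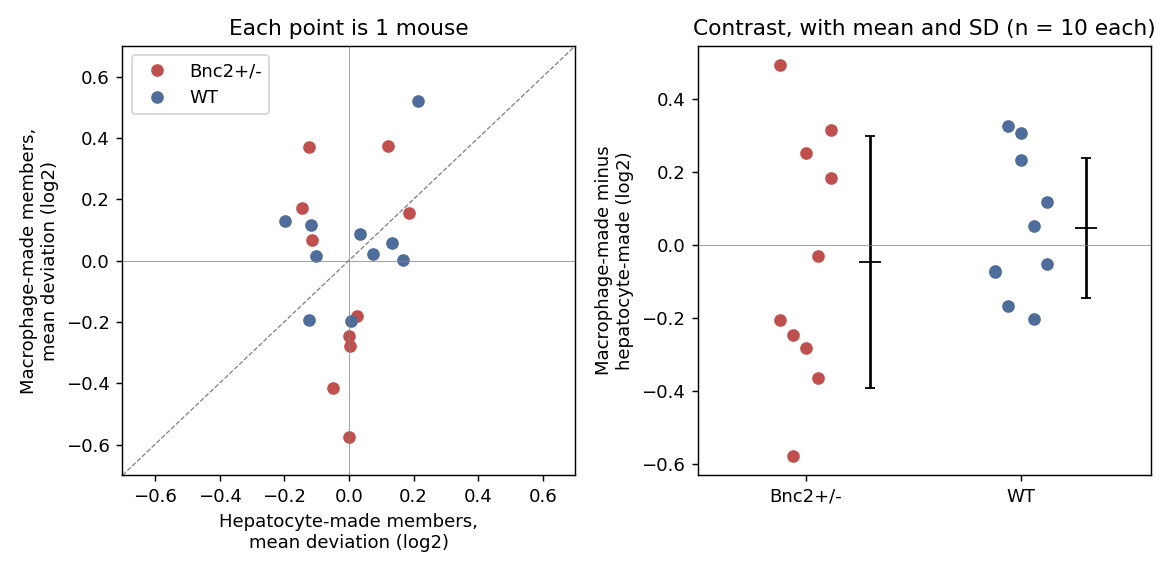
Left, mean deviation of macrophage-made genes against that of hepatocyte-made genes (log2) in each mouse, with the dashed line marking equality. Right, the difference of both in each mouse with mean and SD (n = 10 each), which spanned -0.58 to 0.49 in Bnc2+/- livers and -0.20 to 0.33 in WT livers.

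Of the Kupffer cell markers none passed the adjusted threshold. All 8 had a negative difference (median -0.25), against 10877 of all 22180 genes. For Adgre1, Vsig4 and Clec1b it was under 0.1 in size. Of the 8 markers 2, Marco (-1.03) and Timd4 (-0.97), were lower at an unadjusted limma p under 0.05, against 3.63% of all genes. Adjusted p ran from 0.741 to 0.998. All 8 lay above background, and the lowest mean of the list in a liver was 10.87 among Bnc2+/- and 11.81 among WT livers, and the highest of the 20 livers was a WT liver at 13.14. In Bnc2+/- replicate 2, lowest in the macrophage-made genes, Adgre1 was at 11.78 and Clec4f at 11.03, the lowest value of each gene among 20 livers. In Bnc2+/- replicate 1, highest in the contrast, Adgre1 was at 13.53 and Clec4f at 14.56, the highest of each. Of 7 measured markers of recruited macrophages, 6 had a negative difference (median -0.10). Ly6c2 (-0.62) and Lgals3 (-0.26), 2 of the 7, were lower at an unadjusted limma p under 0.05, against 3.63% of all genes. The list mean of these markers ranged from 10.05 to 11.07 over Bnc2+/- livers and from 10.21 to 10.85 over WT livers. The part of macrophage number in the values of the macrophage-made genes was not tested.

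Relations between genes across the 20 mice were computed on values centred within genotype, with p from 100000 permutations within genotype and Benjamini-Hochberg adjustment over 12 relations, of which 3 were added after the data were seen. Another 3 that had been planned needed C3, Cfd or Gbp2 and could not be computed. The C1q chains varied together. For C1qa and C1qc Pearson's r was 0.70 (permutation p = 0.00072, adjusted 0.00288) and Spearman's rho 0.66 (permutation p = 0.003, adjusted 0.009), with r = 0.61 without the 2 mice farthest from the median, 0.84 within Bnc2+/- and 0.50 within WT livers. For C1qa and C1qb r was 0.66 (permutation p = 0.00319, adjusted 0.00487) and rho 0.63 (permutation p = 0.00697, adjusted 0.0139), with r = 0.51 without the 2 farthest mice, 0.77 within Bnc2+/- and 0.41 within WT livers. The added pair C1qb and C1qc had r = 0.88 (permutation p = 1e-05, the smallest these permutations can give, adjusted 0.00012) and rho 0.85 (permutation p = 6e-05, adjusted 0.00072), with r = 0.80 without the 2 farthest mice, 0.87 within Bnc2+/- and 0.92 within WT livers. These 3 genes are neighbours and were read on the same arrays.

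C1qa, Cfp and Fcna also each went with a gene from the list of Kupffer cell markers. The other macrophage-made genes were not set against these markers. C1qa with Adgre1, which encodes the F4/80 antigen of macrophages, had r = 0.82 (permutation p = 0.00012, adjusted 0.00072) and rho 0.76 (permutation p = 0.00111, adjusted 0.00584), with r = 0.73 without the 2 farthest mice, 0.88 within Bnc2+/- and 0.60 within WT livers. Cfp with Adgre1 had r = 0.73 (permutation p = 0.00147, adjusted 0.00439) and rho 0.66 (permutation p = 0.00624, adjusted 0.0139), with r = 0.54 without the 2 farthest mice, 0.80 within Bnc2+/- and 0.47 within WT livers. Fcna with Clec4f, a lectin of Kupffer cells, had r = 0.70 (permutation p = 0.00325, adjusted 0.00487) and rho 0.60 (permutation p = 0.016, adjusted 0.024), with r = 0.74 without the 2 farthest mice, 0.72 within Bnc2+/- and 0.63 within WT livers. The other 4 planned relations did not pass. C8a with C8b, the chains of C8, had r = 0.19 (permutation p = 0.488, adjusted 0.532) and rho 0.26 (permutation p = 0.27, adjusted 0.295), with r = -0.06 without the 2 farthest mice, -0.14 within Bnc2+/- and 0.37 within WT livers. C2 with Cfb, which are neighbours, had r = -0.00 (permutation p = 0.987, adjusted 0.987) and rho 0.05 (permutation p = 0.837, adjusted 0.837), with r = 0.19 without the 2 farthest mice, -0.30 within Bnc2+/- and 0.19 within WT livers. Fcnb with S100a8 of neutrophils, both below background on average, had r = 0.26 (permutation p = 0.223, adjusted 0.297) and rho 0.27 (permutation p = 0.27, adjusted 0.295), with r = 0.13 without the 2 farthest mice, 0.20 within Bnc2+/- and 0.41 within WT livers. C7 with Dcn, a proteoglycan of mesenchymal cells, had r = 0.27 (permutation p = 0.268, adjusted 0.322) and rho 0.29 (permutation p = 0.221, adjusted 0.295), with r = 0.29 without the 2 farthest mice, 0.29 within Bnc2+/- and 0.27 within WT livers.

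Serping1 and Cfb are known to be induced by interferon gamma. Of 19 measured interferon gamma-induced genes, 19 had a negative difference, against 10877 of all 22180 genes (medians -0.47 and 0.00). At an unadjusted limma p under 0.05, 11 were lower, among them Ubd (-1.31), Tap1 (-0.67) and Irf1 (-0.40), against 3.63% of all genes. Of the 19 genes, 0 passed the adjusted threshold (adjusted p from 0.459 to 0.987). The mean of the list ranged from 9.28 to 10.51 over Bnc2+/- livers and from 9.64 to 11.44 over WT livers. Irf1, a transcription factor of that response, was set against both genes after the data were seen. Serping1 and Cfb had the smallest unadjusted limma p of the complement genes (0.0389 and 0.0742). No other complement gene was set against Irf1, so these relations do not show whether the link is particular to them. Serping1 with Irf1 had r = 0.71 (permutation p = 0.00274, adjusted 0.00487) and rho 0.65 (permutation p = 0.00974, adjusted 0.0167), with r = 0.65 without the 2 farthest mice, 0.28 within Bnc2+/- and 0.87 within WT livers, where Serping1 left a gap between 17.72 and 18.05. Cfb with Irf1 had r = 0.72 (permutation p = 0.00183, adjusted 0.00439) and rho 0.74 (permutation p = 0.00146, adjusted 0.00584), with r = 0.60 without the 2 farthest mice, 0.33 within Bnc2+/- and 0.84 within WT livers. Neither Serping1 nor Cfb was set against markers of stellate cells or macrophages. The difference in r between genotypes was not tested. The part of the interferon response, or of any cell type, in the genotype difference of Serping1 or Cfb was not tested either.

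Further complement genes outside the 33 were counted from a list of 31, of which 27 were measured. At an unadjusted limma p under 0.05, 1 was lower (Itgb2, the beta chain of complement receptors 3 and 4), against 3.63% of all genes. At that level 2 were higher (Colec10 and Cr2), against 2.78% of all genes. Of the 27 genes, 0 passed the adjusted threshold, the smallest adjusted p being 0.506. The median difference of the 27 genes was 0.05, against 0.00 for all genes. Itgb2 averaged 12.70 ± 0.32 in Bnc2+/- livers and 13.12 ± 0.24 in WT livers, a difference of -0.42 (SE 0.12). Itgam and Itgax, for the alpha chains of these receptors, differed by only -0.09 (SE 0.25) and -0.03 (SE 0.21). Colec10, for a collectin of the lectin pathway, averaged 10.85 ± 0.30 in Bnc2+/- livers and 10.53 ± 0.23 in WT livers, a difference of 0.33 (SE 0.12). Cr2, complement receptor 2 of B cells, was below background at 5.98 ± 0.64 in Bnc2+/- livers and 5.37 ± 0.45 in WT livers. The acute phase genes, which hepatocytes induce in inflammation together with several complement genes, had a median difference of -0.04. Of their 19 measured members 0 had an unadjusted limma p under 0.05, against 6.41% of all genes. A list of 17 measured genes held neighbours of C4b and class I and II genes, together with C4b, C2 and Cfb themselves. Of these 17, 0 reached that level and the median was -0.08. Markers of stellate cells and fibroblasts, which also make C7, had a median difference of -0.18. Of these 8 markers 3 (Col1a1, Col1a2 and Dcn) were lower at an unadjusted limma p under 0.05, against 3.63% of all genes. Their list means ran from 11.96 to 12.84 in Bnc2+/- livers and from 12.41 to 13.02 in WT livers.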

How the data were processed

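RNA of 20 livers (10 Bnc2+/-, 10 WT, grouped by the genotype label) was measured, 1 array per mouse. The deposited values are log2. Per the methods, the authors processed the arrays in the GIANT suite 0.0.2 with Affymetrix Power Tools (GC correction, intensity scaling and robust multi-array averaging at core gene level). Levels are relative to the other arrays processed with them. The version of Affymetrix Power Tools and, for the mouse arrays, the genome build and annotation release are not given in the sources used here. The number of arrays limits the precision.

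Of 41345 probe sets, 23521 had 1 gene in the platform annotation, 1820 several and 16004 none, and only the first were used, averaged per symbol (22180 genes, 1082 with several probe sets). No dim gene was removed. The reference table of GRCm38.p6 matched 23328 of them by gene identifier, changed 0 symbols and served for names and neighbours only. No complement gene reached the array maximum of 19.9.

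Genotypes were compared with limma 3.58.1 in R 4.3.3 (lmFit, eBayes, no covariate) as Bnc2+/- minus WT, with Benjamini-Hochberg adjustment over all genes at 0.05. Permutation tests were two-sided with 100000 resamples. Code was tested on simulated data. The complement genes, lists, relations and alternatives were chosen with earlier results of these data known. Lists are given by counts and medians only. Lowest, median and highest values are given for the C1q chains and the 10 complement genes of smallest unadjusted p (for C5ar1, mean, SD, median and highest). Of each other list up to 4 genes of smallest p could be named, as could the partner genes of the relations. Some genes outside that rule were named too, such as Alb, Apoa2, Ttr, Vsig4, Clec1b, Irf1, Itgam and Itgax. Values of C1s1, C4b, C1rb, C1s2, C1ra, H2-Ea and Clec4f by mouse were chosen after they were seen. Alternatives were a new quantile normalization, median centring, the brightest probe set, genes at or above the median level only, array weights, other priors, a replicate block, a residual component, H2-Ea or C1rb as covariate, other class members, permutation, and leaving out arrays.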

Additional observations from a re-analysis of the deposited data

Results flagged for a closer look

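Of 60 groups of 10 mice (30 complement genes in each genotype), 4 held a mouse separated from the rest by a gap beyond Dixon's 95% critical value, and chance gives about 1 group in 20. All 4 were WT livers. C8a was highest in WT replicate 9 at 16.58, with the next WT liver at 15.93. Mbl1 was lowest in WT replicate 7 at 13.43, with the next at 14.06. C1qb was highest in WT replicate 8 at 16.35, with the next at 15.91. C5ar2 was highest in the same replicate 8 at 10.24, with the next at 9.77.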

How the results depend on the processing

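Under 32 alternative settings that gave values of single genes, 0 complement genes passed the adjusted threshold (30 genes tested, 29 at the filter on the median level, which dropped Fcnb), and over all genes the count stayed at 0 by limma and by permutation, except for 1 gene once the leading residual component was a covariate. Of 359 differences with all or 16 arrays 16 changed sign, and of 600 with 1 array left out 63 did, whereas 14 genes kept their sign in all of these 32 settings. The changed values were as follows. C1s1 was 0.043 on its brightest probe set, 0.070 with H2-Ea and 0.062 with C1rb as covariate. With array weights C8b was 0.027, C9 0.017 and Vtn 0.0075. Without the 4 arrays of smallest spread C8b was 0.032, C9 0.066, Vtn 0.031, Cd59a 0.039, Cd46 -0.0020, C3ar1 -0.066 and C5ar2 0.074. With H2-Ea as covariate Vtn was 0.00036, Cd59a 0.057 and C3ar1 -0.035. Leaving out 1 array, the differences ran from -0.11 to 0.025 for C1qb, -0.16 to 0.10 for C1s1, -0.067 to 0.12 for C3ar1, -0.14 to 0.036 for C4b, -0.17 to 0.0069 for C5ar2, -0.17 to 0.067 for C7, -0.045 to 0.044 for C8b, -0.11 to 0.019 for C9, -0.0025 to 0.13 for Cd55, -0.10 to 0.022 for Cd59a, -0.020 to 0.027 for Cfi, -0.018 to 0.075 for Fcnb, -0.057 to 0.069 for Mbl1, -0.020 to 0.13 for Mbl2 and -0.024 to 0.0091 for Vtn. Another 10 genes moved by over 1.5 times without a change of sign, from -0.31 (without Bnc2+/- replicate 1) to -0.085 (without Bnc2+/- replicate 2) for Cfp, -0.26 to -0.086 (without Bnc2+/- replicate 2) for Fcna, -0.20 (without Bnc2+/- replicate 3) to -0.030 (without Bnc2+/- replicate 2) for C1qa, -0.18 (without Bnc2+/- replicate 3) to -0.036 (without WT replicate 8) for C1qc, -0.29 to -0.098 (without WT replicate 8) for C5ar1, -0.17 to -0.065 (without Bnc2+/- replicate 3) for C2, 0.064 to 0.18 (without WT replicate 9) for C8a, 0.019 (without Bnc2+/- replicate 9) to 0.15 (without WT replicate 10) for Cd46, -0.051 (without WT replicate 6) to -0.0075 (without WT replicate 9) for Clu and 0.031 (without WT replicate 3) to 0.10 (without WT replicate 9) for Hc. Those 10 genes were counted on leaving out 1 array only, where Cd46 kept its sign. The cause was not tested.

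The count of complement genes at an unadjusted p under 0.05 was 0 with H2-Ea as covariate and without the 4 arrays of smallest spread, and 0 to 2 on leaving out 1 array, since Serping1 kept such a p in 8 of 20 cases (without Bnc2+/- replicate 1, 3, 4 or 9 or WT replicate 1, 3, 7 or 10), Cfb reached it without Bnc2+/- replicate 4 or WT replicate 9 or 10, and C8a without WT replicate 9. Serping1 had p = 0.0620 with H2-Ea as covariate. The filter at the median level left 363 genes higher at that level, as it tests fewer genes. The contrast of macrophage-made with hepatocyte-made genes ran from -0.15 to -0.03 on leaving out 1 array. It was -0.07 with the C1q chains alone as the macrophage class. It was -0.14 with C1s1, Clu, Serping1, Masp1, Cfb, C4b and C2 dropped from the hepatocyte class as genes that other cells make too. The dropped genes held the most negative differences of that class, Serping1 (-0.23), Cfb (-0.14) and C2 (-0.13). Only Masp1 (0.08) was positive among them.

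Replicate numbers are shared by the genotypes. Deviations of same-numbered mice had correlations of -0.17 to 0.17, over 0.1 in 4 of 10 pairs. Of 20 arrays, 4 correlated best with their own number among the 10 mice of the other genotype. Whether that count exceeds chance was not tested. With the replicate block 0 genes were called, the count of complement genes at an unadjusted p under 0.05 was 0, and Serping1 had p = 0.0520. At 10 arrays per genotype, intervals of C1s1, C4b, Cfp, Fcna and C5ar1 still included differences beyond 0.5 in size.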
